A study of Mus musculus and Homo sapiens with 12 samples.

Results

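The transcripts of 10 interferon-induced antiviral effector genes were followed through all 12 libraries of a study that deleted PFKFB4, a bifunctional enzyme that sets the level of a regulatory sugar phosphate acting on glycolysis, in mouse EMT6 mammary carcinoma cells and in human MDA-MB-231 breast adenocarcinoma cells. Both lines were grown in high-glucose medium with serum, and each was sequenced as 3 wild-type and 3 PFKFB4-knockout libraries of polyadenylated RNA. The labels name no promoter, Cre or treatment, and they do not say whether a knockout came from 1 clone or which exon was edited. The knockout columns carry the codes A7 (EMT6) and G2 (MDA-MB-231), which no label explains, and were taken as knockout because the remaining 3 columns per table carry a wild-type name. Sample titles name biological replicates, but no label mentions separate cultures. P-values therefore cover only the spread between these libraries, which may be technical.

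The genes are Isg15, Ifit1, Ifit2, Ifit3, Bst2, Rtp4, Mx1, Oas2, Oasl2 and Ifi27l2a among 54331 mouse identifiers, and ISG15, IFIT1, IFIT2, IFIT3, BST2, RTP4, MX1, OAS2, OASL and IFI27 among 60233 human identifiers. All 10 were present in both tables. OASL and Oasl2, and IFI27 and Ifi27l2a, are relatives rather than the same gene in both species. The genes were chosen by earlier results on these libraries, namely the rise of interferon-stimulated genes in EMT6 knockout TPM, so the EMT6 changes of these genes are given as a description with no test. The human members were found by their identifiers alone. It is not known whether MDA-MB-231 values also entered the choice, so the tests there, taken from the fit over all genes, are given gene by gene and their count is a description.

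Type I interferons bind a receptor of IFNAR1 and IFNAR2 chains, whose kinases JAK1 and TYK2 activate transcription factors. These bind interferon-stimulated response elements in promoters and switch on effectors that block viral RNA translation, copying or release. Many tumour lines express part of this programme with no virus present.

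The response element has a repeated GAAA core. Of the 10 mouse genes, 6 had a promoter window in RefSeq on GRCm38.p6, running from 250 bases before to 50 bases after an annotated start, and 4 of these 6 held GAAANNGAAA or its reverse complement TTTCNNTTTC, where N is any base, on either strand and with overlapping matches counted. Over 27025 mouse genes with a window, 3.99% held a match. Of the other interferon-response genes described below, 19 of 53 with a window held one. Stretches of Isg15, Ifit1 and Ifit3 are shown as examples from windows that held a match. Being picked for a match, these stretches do not relate a match to the EMT6 changes. They are in lower case with matches in capitals, 5′ to 3′ on the gene's strand, and end 21 bases before the annotated start, before the transcribed region.
Isg15 (chr4:156200839-156200988, minus strand): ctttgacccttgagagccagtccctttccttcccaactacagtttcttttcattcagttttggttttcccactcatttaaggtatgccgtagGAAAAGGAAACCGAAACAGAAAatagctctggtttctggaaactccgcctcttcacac
Ifit1 (chr19:34640744-34640868, plus strand): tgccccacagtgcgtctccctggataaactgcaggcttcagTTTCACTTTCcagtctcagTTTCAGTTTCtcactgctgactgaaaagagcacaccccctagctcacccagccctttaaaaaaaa
Ifit3 (chr19:34583359-34583508, plus strand): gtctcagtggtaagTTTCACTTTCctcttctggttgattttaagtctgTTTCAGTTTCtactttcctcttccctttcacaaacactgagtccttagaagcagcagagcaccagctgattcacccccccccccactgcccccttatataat

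Isg15 held 3 overlapping matches in a single run, starting 78, 72 and 66 bases before the start. Bst2 held 2 overlapping matches at 130 and 124 bases. Ifit1 (104 and 85 bases) and Ifit3 (156 and 122 bases) each held 2 separate matches, and the same 2 decamers, TTTCACTTTC and TTTCAGTTTC, occurred in both. Neither of the 2 annotated starts of Ifit2 nor that of Oasl2 had a match, which says only that these letters are not in the window. The other members, Rtp4, Mx1, Oas2 and Ifi27l2a, are named without a sequence. A match is a description of letters and not a measured binding site.

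**Figure D1:**
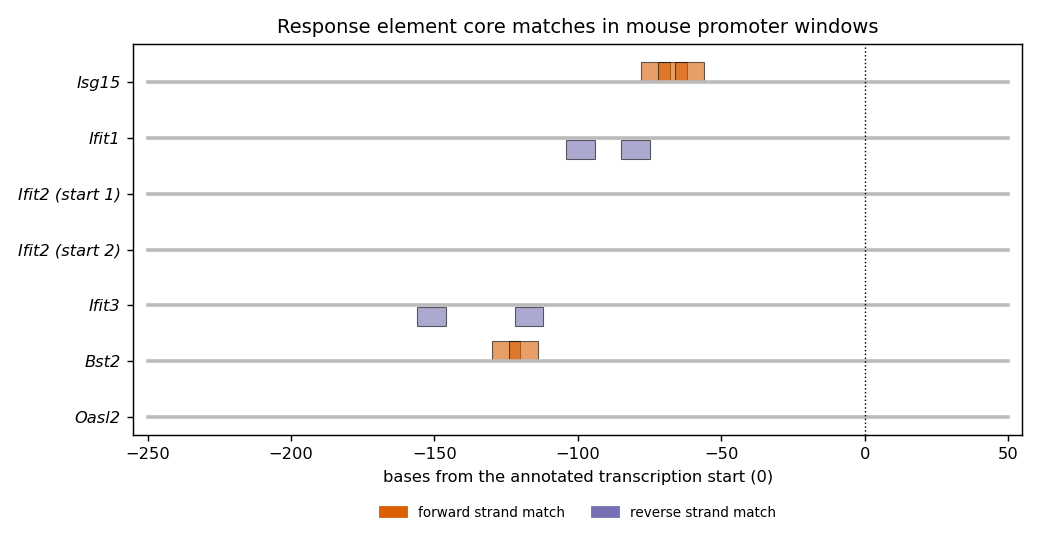
Positions of the response element core in the promoter windows of 6 mouse members, with the distance in bases from the annotated transcription start on the x axis (the start is 0) and 1 line per annotated start. Isg15 carries 3 matches and Bst2, Ifit1 and Ifit3 carry 2 each, all before the start, and the Ifit2 and Oasl2 windows carry none.

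Before the members are described, the libraries themselves were compared. Genes with at least 1 TPM (an abundance corrected for transcript length and for the library's total) numbered 11871 to 12426 per EMT6 library and 13038 to 13593 per MDA-MB-231 library, and the read depth behind a value is unknown. Pfkfb4 was lower but present in the EMT6 knockout, at 6.96, 6.87 and 8.24 TPM against 10.2, 10.5 and 10.4 TPM in wild type, which is a gene-level value and does not test the edited site. The human PFKFB4 transcript was not analysed here. In EMT6 the keratin gene Krt8 stood at 459 to 547 TPM and the mesenchymal marker Vim at 2619 to 3348 TPM, while the epithelial adhesion genes Epcam and Cdh1 reached at most 0.288 and 0.00909 TPM. The mesenchymal marker Cdh2 was also near 0, at no more than 0.0452 TPM in any library, and was not tested. Of 4 tested epithelial markers, Krt8 was called higher in the knockout and 3 lower (limma adjusted p under 0.05). Over all tested EMT6 genes, 14.5% were called higher and 42.3% lower. Marker means went from 36.3 to 15.5 TPM for Krt18, 36.5 to 3.94 TPM for Krt14 and 1.95 to 0.0177 TPM for Krt19. Krt19 passed the minimum of 0.5 TPM for the fit only through wild type and so had to differ. Of 3 tested mesenchymal markers, Vim was called higher and 2 lower, beside the same shares of all tested genes. Fn1 went from 616 to 451 TPM and Zeb1 from 4.74 to 1.69 TPM. The part of these differences in the effector levels was not tested. TPM of all genes leaned lower in the EMT6 knockout, with a median log2 fold change of -0.21 over tested genes, and less so in MDA-MB-231 (-0.04). Median-ratio scaling, which divides a library by the median of its ratios to the mean library, brought these medians to -0.01 and -0.003.

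In wild-type EMT6 the effectors spanned a wide range of levels, and 9 of the 10 were higher in every knockout library than in any wild-type library. The exception was Ifit2. Over all tested genes, 17.9% were higher in the knockout with no overlap, and nothing is read from that difference because the EMT6 changes helped choose the list. Summed over the 10 genes, the level was 69.0 to 78.3 TPM in wild-type libraries and 417 to 446 TPM in knockout libraries. Bst2 and Isg15 together gave 85.0% of the wild-type sum and 74.1% of the knockout sum. In a bulk sample, more cells with a response and more RNA per cell cannot be told apart.

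Isg15 (chromosome 4, 156199424 to 156200818 on GRCm38) encodes a ubiquitin-like protein that is attached to other proteins. Its level was 16.2, 18.9 and 18.5 TPM in wild type and 110, 94.3 and 102 TPM in the knockout, so that the lowest knockout library stood far above the highest wild-type library. The means were 17.9 ± 1.45 and 102 ± 7.78 TPM (SD, n = 3 each), a 5.72-fold ratio. Its log2 fold change, on the log2(TPM + 1) scale used throughout, was 2.45 ± 0.08 (SE).

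Bst2 (chromosome 8, 71534255 to 71537456) encodes tetherin, a membrane protein that holds budding enveloped viruses at the cell surface. It was the most abundant of the 10 in both EMT6 groups. Wild-type libraries held 41.6, 47.8 and 48.2 TPM and knockout libraries 226, 210.0 and 225 TPM, a 4.81-fold ratio of means and a log2 fold change of 2.24 ± 0.07 (SE). The wild-type level was already higher than that of any other member, and the ratio of mean TPM was the lowest among the 9 genes whose groups did not overlap.

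The 3 Ifit genes lie in 1 cluster on chromosome 19, which holds further Ifit genes such as Ifit3b, in the order Ifit2 (34550694 to 34576419), Ifit3 (34583531 to 34588731) and Ifit1 (34640871 to 34650009), with 7111 bases between the first pair and 52139 between the second. IFIT proteins are tetratricopeptide repeat proteins; IFIT1 binds the caps of RNA that lacks a methyl mark of the host, and IFIT3 stabilises it. Ifit1 stood at 0.823, 0.765 and 0.781 TPM in wild type and at 8.08, 8.21 and 7.81 TPM in the knockout, a 10.2-fold ratio with a log2 fold change of 2.33 ± 0.06 (SE). Ifit3 went from 0.237, 0.339 and 0.234 TPM to 3.50, 3.31 and 3.50 TPM, a 12.7-fold ratio with a log2 fold change of 1.81 ± 0.07 (SE). Ifit1 had narrow ranges within both groups, and Ifit3 within the knockout. The wild-type libraries of Ifit3 were wider for their level, with a mean of 0.270 ± 0.060 TPM (SD, n = 3).

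Ifit2 did not follow Ifit1 and Ifit3 in EMT6. It stood at 3.37, 2.92 and 3.05 TPM in wild type and at 3.54, 3.44 and 3.33 TPM in the knockout, so that wild-type replicate 1 lay above the lowest knockout library. Its log2 fold change was 0.11 ± 0.07 (SE), and 0.29 under median-ratio scaling, where the groups no longer overlapped. Among the 10 genes ordered by mean TPM, Ifit2 was in place 4 in wild type and in place 9 in the knockout, where its range overlapped that of Ifit3. Ifit3 has a near-identical neighbour, Ifit3b, which went from 0.0507 to 1.79 TPM on average, and how reads shared by such copies were counted is not given in the sources used here, so the split between them is uncertain.

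Oas2 and Oasl2 belong to the oligoadenylate synthetase family, whose active members make a second messenger that activates RNase L in response to double-stranded RNA. Oas2 (chromosome 5, 120730333 to 120749853) stood at 0.244, 0.257 and 0.257 TPM in wild type and at 5.27, 4.97 and 5.13 TPM in the knockout, a 20.3-fold ratio and a log2 fold change of 2.29 ± 0.06 (SE). Oasl2 (chromosome 5, 114896936 to 114912234), a mouse relative of OASL that keeps synthetase activity, went from 3.70, 3.78 and 3.82 TPM to 25.0, 29.1 and 29.3 TPM, a 7.39-fold ratio and a log2 fold change of 2.59 ± 0.08 (SE). The wild-type libraries of both genes were close together, and the knockout libraries stood clear of them.

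The 2 largest log2 fold changes were those of Ifi27l2a and Rtp4. Ifi27l2a (chromosome 12, 103442167 to 103443680) encodes a small hydrophobic membrane protein of the IFI27 family and went from 0.299, 0.444 and 0.480 TPM to 21.8, 20.5 and 20.9 TPM, a 51.6-fold ratio and a log2 fold change of 3.97 ± 0.08 (SE). Rtp4 (chromosome 16, 23520291 to 23614222), a receptor transporter that helps G protein-coupled receptors reach the cell surface, went from 2.52, 2.97 and 2.07 TPM to 41.7, 43.0 and 44.6 TPM, a 17.1-fold ratio and a log2 fold change of 3.65 ± 0.10 (SE). Rtp4 moved from place 5 to place 3 in the order of levels. Its annotated exons share 296 nt with the transcript Gm45338 on the same strand.

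Mx1 (chromosome 16, 97447035 to 97462907), a dynamin-like GTPase that traps viral nucleocapsids, was the lowest of the 10 in both EMT6 groups. It stood at 0.0765, 0.145 and 0.109 TPM in wild type and at 1.42, 0.700 and 0.312 TPM in the knockout. Knockout replicate 1 stood well above the other 2, and the knockout mean was 0.809 ± 0.560 TPM (SD, n = 3). Mx1 did not reach 0.5 TPM in 3 libraries and was not fitted. Ifit3, Oas2 and Ifi27l2a passed that minimum only through the knockout libraries. The median log2 fold change of the 9 fitted members was 2.33, beside -0.21 over all tested genes.

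**Figure D2:**
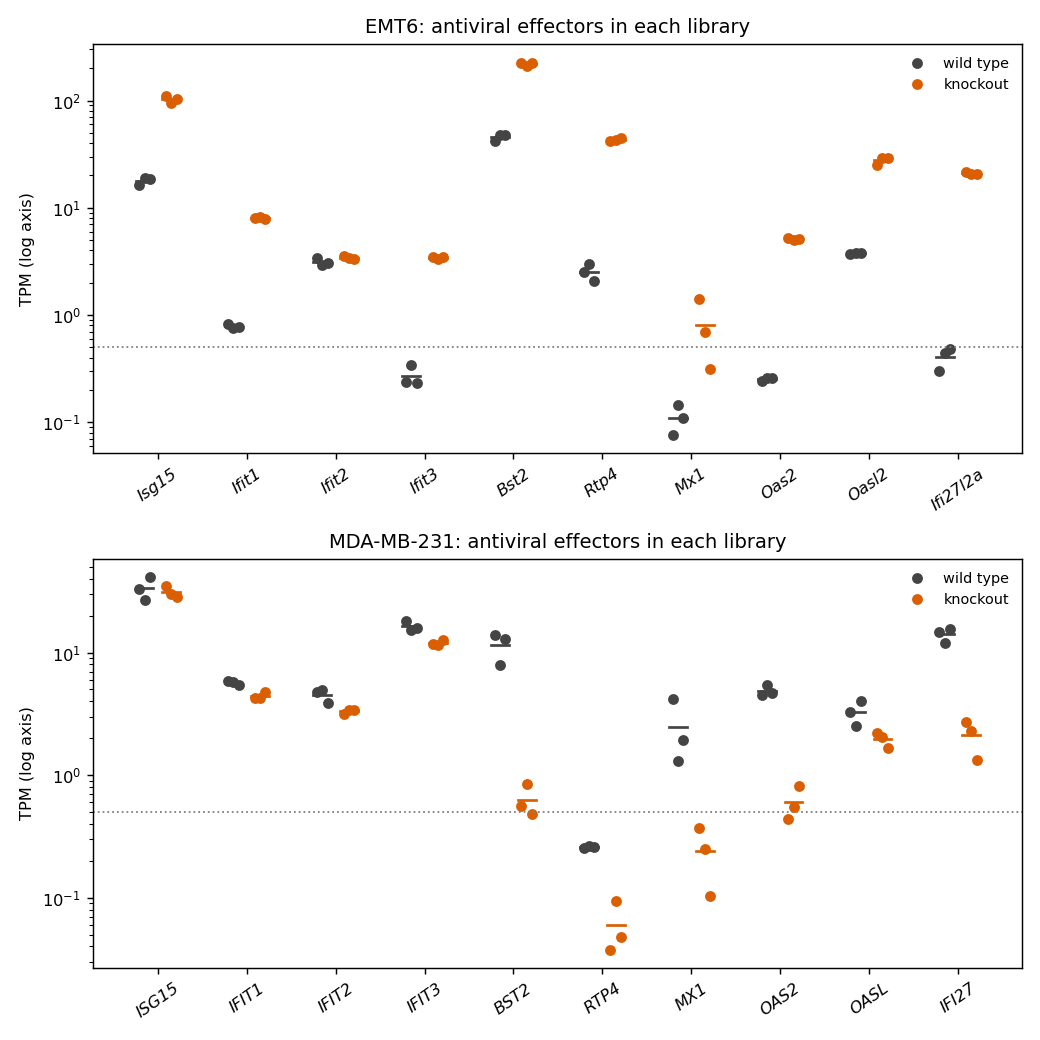
TPM of the 10 effectors in each library on a log axis, EMT6 above and MDA-MB-231 below, with 1 point per library, a bar at each group mean and a dotted line at the minimum of 0.5 TPM. In EMT6 the knockout points lie above the wild-type points for every gene except Ifit2, where they overlap, and in MDA-MB-231 they lie below for every gene except ISG15.

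In MDA-MB-231 the same genes stood lower in the knockout or did not differ beyond the spread. For 9 of the 10, every knockout library was below every wild-type library, against 22.9% of all tested genes (8 of the 9 were among those tested). Of 9 fitted members, 5 were called lower (BST2, OAS2, IFI27, IFIT3 and MX1) and 0 higher by limma with a Benjamini-Hochberg adjusted p under 0.05, beside 12.1% of all tested genes called lower and 7.97% called higher. The 10 genes summed to 82.0 to 106 TPM in wild type and 53.7 to 60.3 TPM in the knockout. MX1 passed the minimum of 0.5 TPM only through the wild-type libraries and so had to differ, which also fixed its place in the count with no overlap. Without MX1, 4 of 8 were called lower. Without knockout replicate 2 or without knockout replicate 3, the count called lower was 3, and without wild-type replicate 2 it was 6.

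BST2 showed the largest change in MDA-MB-231. Wild-type libraries held 14.0, 7.87 and 12.9 TPM and knockout libraries 0.565, 0.839 and 0.478 TPM, an 18.5-fold ratio of wild type to knockout. The log2 fold change was -2.92 ± 0.22 (SE), with limma adjusted p = 0.00052. Wild-type replicate 2 was the lowest of its group and still lay far above every knockout library. BST2 was in place 4 of the 10 by level in wild type and in place 7 in the knockout. Its range overlapped that of IFI27 in place 3 in wild type and that of OAS2 in place 8 in the knockout.

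OAS2 went from 4.51, 5.42 and 4.71 TPM to 0.441, 0.552 and 0.813 TPM, an 8.10-fold ratio and a log2 fold change of -1.88 ± 0.13 (SE), with limma adjusted p = 0.000381. IFI27 went from 14.8, 12.0 and 15.6 TPM to 2.70, 2.30 and 1.33 TPM, a 6.71-fold ratio and a log2 fold change of -2.30 ± 0.20 (SE), with limma adjusted p = 0.000927. Over 12 alternative fits, the highest limma adjusted p was 0.00613 for BST2, 0.00565 for OAS2 and 0.00768 for IFI27.

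MX1 varied more. Its wild-type libraries held 4.16, 1.31 and 1.93 TPM and its knockout libraries 0.370, 0.251 and 0.104 TPM, a 10.2-fold ratio of wild type to knockout given with no test. Wild-type replicate 1 stood apart above the other 2, and the groups did not overlap. With no filter on low values, which removes the dependence on that minimum, MX1 was not called (limma adjusted p = 0.0622). RTP4 stood at 0.255, 0.264 and 0.259 TPM in wild type and at 0.0377, 0.0946 and 0.0478 TPM in the knockout, all under the minimum, and was not fitted there. With no filter its log2 fold change was -0.25 and limma adjusted p = 0.0105, and the count called lower was 5 in that fit, with RTP4 in it and MX1 not.

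The IFIT genes changed less than these in MDA-MB-231. IFIT3, the most abundant of them, stood at 18.1, 15.2 and 16.0 TPM in wild type and at 11.8, 11.4 and 12.8 TPM in the knockout, a log2 fold change of -0.42 ± 0.10 (SE), with limma adjusted p = 0.0312. Leaving out a library moved its adjusted p to between 0.0602 and 0.116 in 5 of 6 cases, that is for each library except wild-type replicate 2. IFIT1 had 5.83, 5.72 and 5.40 TPM in wild type and 4.27, 4.30 and 4.79 TPM in the knockout, which is a log2 fold change of -0.29 ± 0.10 (SE) with adjusted p = 0.0952 by limma. IFIT2 had 4.76, 4.94 and 3.91 TPM in wild type and 3.17, 3.43 and 3.39 TPM in the knockout (-0.35 ± 0.12 SE, adjusted p = 0.0814). Neither passed the test, although in both genes every knockout library was below every wild-type library.

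OASL, a relative of the synthetases that has lost their activity and acts on RNA sensing, stood at 3.28, 2.50 and 4.03 TPM in wild type and at 2.20, 2.04 and 1.65 TPM in the knockout. Its log2 fold change of -0.51 ± 0.16 (SE) did not pass the test (limma adjusted p = 0.0717), and passed it without wild-type replicate 2 (-0.65, adjusted p = 0.0412). ISG15 was the most abundant member in both MDA-MB-231 groups, at 32.9, 26.8 and 41.1 TPM in wild type and 34.7, 30.0 and 28.3 TPM in the knockout. The groups overlapped, and its log2 fold change of -0.10 ± 0.16 (SE) did not pass the test (limma adjusted p = 0.715) and turned to 0.05 without wild-type replicate 3. The median log2 fold change of the 9 fitted human members was -0.51, beside -0.04 over all tested genes, and the 5 calls did not change in number under median-ratio scaling.

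**Figure D3:**
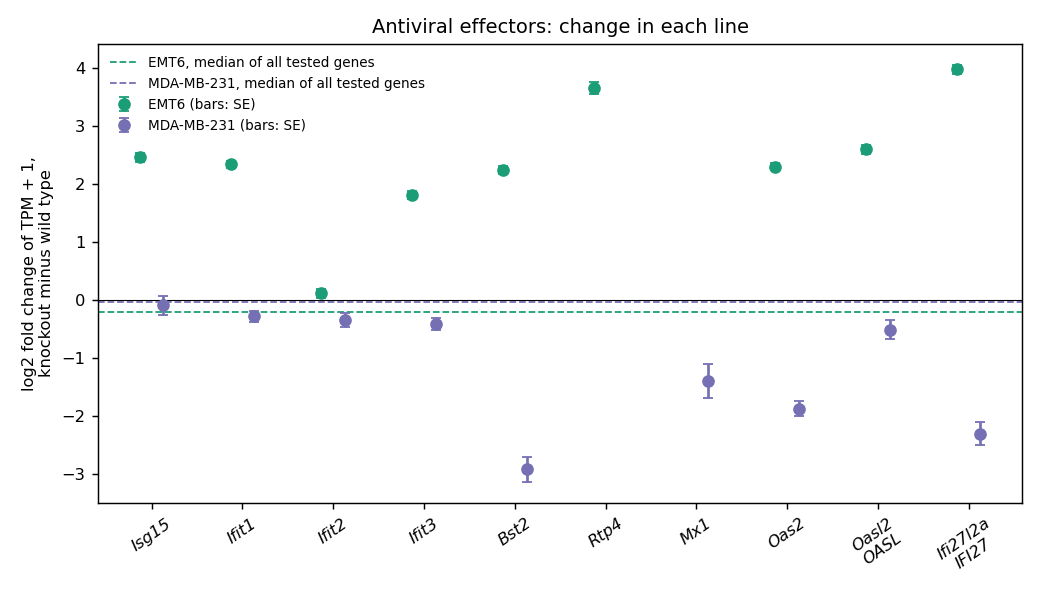
Log2 fold change of TPM + 1, knockout minus wild type, for each effector in EMT6 and MDA-MB-231, with bars for the SE and dashed lines at the median of all tested genes of each line. Mx1 in EMT6 and RTP4 in MDA-MB-231 were not fitted. Values reach 3.97 for Ifi27l2a in EMT6 and -2.92 for BST2 in MDA-MB-231.

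Set side by side, the lines differed in order as well as in direction. Each line has its own table and normalization, so the difference between lines was not tested. In wild-type EMT6, Bst2 and Isg15 led with no overlap between neighbouring genes, followed by Oasl2, Ifit2 and Rtp4, of which Ifit2 and Rtp4 overlapped. In wild-type MDA-MB-231, ISG15 led and was followed by IFIT3, IFI27 and BST2, whose ranges overlapped from one to the next, and IFIT1, OAS2, IFIT2, OASL and MX1 also overlapped in turn. In the MDA-MB-231 knockout, ISG15, IFIT3, IFIT1 and IFIT2 held places 1 to 4 with no overlap between neighbours.

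The genes around the effectors in the interferon pathway were counted in EMT6, where symbols are available. The members of these lists outside the 10 were 63 genes, 59 of them tested, of which 43 were called higher and 8 lower (limma adjusted p under 0.05), beside 14.5% of all tested genes called higher and 42.3% called lower. Under median-ratio scaling the counts were 49 and 5, beside 26.6% and 25.4% of all tested genes. The lists were chosen with the EMT6 response known, so these counts are a description. The limma adjusted p-values of single list genes below come from the fit over all genes and are also descriptive, not independent support. Genes named for a small adjusted p were picked by that value. Of the 43, 6 passed the minimum only through the knockout libraries, and of the 8, 1 only through wild type, so that these had to differ. The corresponding human lists were not analysed here.

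Of 33 tested further effectors in EMT6, 30 were called higher (5 of them passing the minimum only through the knockout) and 1 lower. Over all tested genes, 14.5% were called higher and 42.3% lower. The list had a median log2 fold change of 0.98. Phf11d rose from 3.54 ± 0.129 to 15.9 ± 0.149 TPM (SD, n = 3; limma adjusted p = 1.98e-05), and Gbp3, a guanylate-binding GTPase, from 10.6 ± 0.963 to 44.0 ± 1.84 TPM (SD, n = 3; adjusted p = 4.92e-05). Epsti1 was the one called lower, and it passed the minimum only through wild type, so its values are given with no test: 1.04, 1.15 and 1.06 TPM in wild type, and 0.0312 and 0.0249 TPM in 2 knockout libraries with the remaining one listed at 0. Ifitm2 and Dtx3l did not pass the test in unscaled TPM, at 0.09 each on the log2 scale (limma adjusted p = 0.329 and 0.314).

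The genes that attach or remove ISG15 did not move alike. Ube2l6, the conjugating enzyme, rose from 12.1 ± 0.846 to 24.7 ± 0.341 TPM (SD, n = 3; log2 fold change 0.97 ± 0.06 SE, limma adjusted p = 0.000216). Usp18, which removes ISG15 and restrains receptor signalling, stood at 0.231, 0.309 and 0.424 TPM in wild type and at 16.9, 17.0 and 18.1 TPM in the knockout. It passed the minimum only through the knockout and is given with no test. The activating enzyme gene Uba7 was at 10.1 and 11.1 TPM (adjusted p = 0.584) and the ligase gene Herc6 at 5.29 and 5.82 TPM (adjusted p = 0.336). Both p-values are from limma on unscaled TPM. Under median-ratio scaling, more genes of the interferon lists were called higher (49 against 43). Of 5 genes in this list, 3 were called higher and 0 lower, beside 14.5% and 42.3% of all tested genes. The 3 were Ube2l6, Usp18 and Trim25, which went from 9.92 to 13.1 TPM (limma adjusted p = 0.00699).

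In the sensing list, 6 of 10 genes were called higher and 3 lower, beside 14.5% and 42.3% of all tested genes, so the share called lower was below that of all tested genes. Zbp1, a sensor of left-handed nucleic acid helices, rose from 1.18 ± 0.107 to 10.1 ± 0.288 TPM (SD, n = 3; limma adjusted p = 1.92e-05), and the RIG-I-like protein gene Dhx58 from 3.31 ± 0.822 to 14.2 ± 1.99 TPM (adjusted p = 0.000553). The DNA sensor Cgas fell by 0.49 ± 0.08 (SE, adjusted p = 0.00294) on the log2 scale, and Tmem173, its adaptor STING, by 0.60 ± 0.09 (SE, adjusted p = 0.00308). Under median-ratio scaling these changes were -0.31 (limma adjusted p = 0.0125) and -0.36 (adjusted p = 0.0179).

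In the signalling list, 5 of 12 tested genes were called higher, Usp18 among them, and 4 lower, with a median log2 fold change of 0.14. Beside 14.5% and 42.3% of all tested genes, the share called lower was below that of the whole table. Irf7 rose by 3.36 ± 0.08 (SE) on the log2 scale, with limma adjusted p = 1.1e-05. Ifnar1, a receptor chain, stood at 14.0, 11.6 and 10.8 TPM in wild type and at 4.47, 4.42 and 4.39 TPM in the knockout, a log2 fold change of -1.27 ± 0.10 (SE), with limma adjusted p = 0.000396, and Irf1 fell by 0.48 ± 0.07 (SE, adjusted p = 0.00256). Under median-ratio scaling the log2 fold changes were -1.06 for Ifnar1 (limma adjusted p = 0.000599) and -0.25 for Irf1 (adjusted p = 0.0335). Ifnb1, the gene of interferon beta, was listed at 0 in every wild-type library and averaged 0.0372 TPM in the knockout, under the minimum for the fit.

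**Figure D4:**
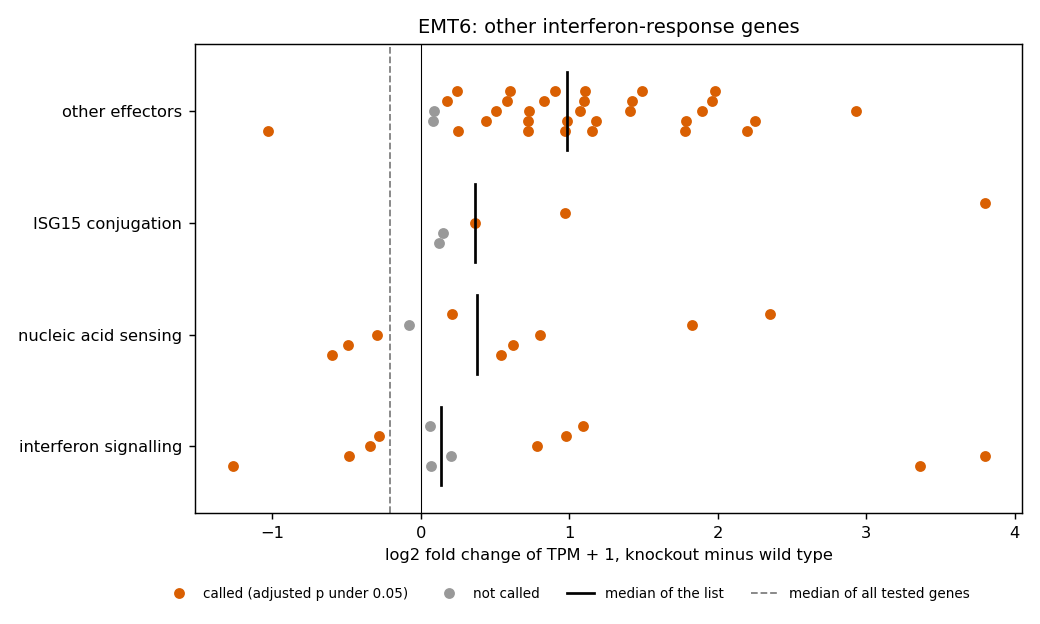
Log2 fold change of TPM + 1, knockout minus wild type, of the tested genes of 4 interferon lists in EMT6, with 1 point per gene, a bar at the median of each list and a dashed line at the median of all tested genes (-0.21). Usp18 is in 2 lists. The further effectors lie above 0 except Epsti1, and the signalling and sensing lists hold genes on both sides.

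Markers of other cell types were read beside the EMT6 rise. Of 13 leukocyte markers, 10 were under 1 TPM in all 6 libraries, Adgre1 and Tyrobp were listed at 0 throughout, and Ptprc reached at most 0.00409 TPM. Cd68 and Cd14 were the most abundant. Cd68 went from a mean of 23.9 TPM in wild type to 56.1 TPM in the knockout, and Cd14 from 25.3 to 23.7 TPM. The list summed to 50.2 to 54.4 TPM in wild type and 83.3 to 88.0 TPM in the knockout, with 3 of 4 tested members called higher (Cd68, Coro1a and Lcp1) and 0 lower, beside 14.5% and 42.3% of all tested genes; 1 of the 3 passed the minimum only through the knockout. All 6 endothelial markers were under 1 TPM in all 6 libraries. Their part in the effector levels was not tested beyond these values.

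The genes whose profile over the 6 EMT6 libraries was most like the mean of the 9 fitted members were Zbtb8os (Pearson r = 0.9994), Rbbp4 (r = 0.9991) and Leprotl1 (r = 0.9991), across standardised log2(TPM + 1) values. Their changes were smaller, with Zbtb8os at 42.3 and 71.9 TPM, Rbbp4 at 114 and 147 TPM and Leprotl1 at 11.5 and 13.1 TPM. The 6 libraries form 2 groups, so such an r follows the group difference, and 6.38% of tested genes had r above 0.95. In MDA-MB-231 the 3 most alike rows have identifiers that the files do not pair with names, and 6.40% of tested genes had r above 0.95.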

How the data were processed

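The authors deposited 1 table of TPM per line, with length-corrected values that sum to 1000000 in each library. The submitters' processing notes name TopHat2 2.1.1, CASAVA 1.8.2, Subread 1.6.4 and featureCounts, and as genome builds GRCh38.p7 and mm10. Settings, strand and annotation: not given in the sources used here. TPM keeps no depth, so no count test was run.

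Mouse symbols matched 54097 of 54331 identifiers (GENCODE M21, GRCm38). Human members were matched by identifier only. Within each line, limma 3.58.1 (R 4.3.3) with a mean-variance trend and no covariate was fitted to log2(TPM + 1) for genes with at least 0.5 TPM in at least 3 of 6 libraries, 13499 in EMT6 and 15299 in MDA-MB-231. P-values were adjusted by Benjamini-Hochberg over all tested genes. A log2(TPM + 1) fold change understates the change of low genes, and ratios are of mean TPM. The fit was tested on simulated data. The members and lists were chosen with earlier results of these data known. Named genes were the 10 members, in each further list the 2 called genes of smallest adjusted p in either direction, and the 3 most alike genes per line. Genes such as Ifitm2, Dtx3l, Uba7, Herc6, Trim25, Ifnb1, Ifit3b and the markers were named after their values were seen. Alternatives were median-ratio scaling, no trend, no filter, a filter at 1 TPM, a pseudocount of 0.1, a 2-fold minimum, a replicate block, leaving out each library and, chosen after seeing the data, removal of the exon length trend in EMT6. Promoter sequences are from RefSeq (GRCm38.p6). Python 3.11.15 was used for the other steps.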

Additional observations from a re-analysis of the deposited data

Results flagged for a closer look

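For 8 of the 10 effectors, every knockout library was above every wild-type library in EMT6 and below every wild-type library in MDA-MB-231. Over all tested genes, 17.9% were higher with no overlap in EMT6 and 22.9% lower with no overlap in MDA-MB-231, and the EMT6 rise helped choose the genes. The difference between the lines was not tested, because each line has its own table and normalization. As ratios of mean TPM, Bst2 was 4.81-fold higher in the EMT6 knockout and BST2 18.5-fold lower in the MDA-MB-231 knockout, and Oas2 was 20.3-fold higher and OAS2 8.10-fold lower. Ifi27l2a was 51.6-fold higher, and its human relative IFI27 was 6.71-fold lower. The mouse gene Ifi27, which is not a member, was 3.44-fold higher, at 115.6 and 398 TPM. Mx1 was 7.35-fold higher and MX1 10.2-fold lower, and Rtp4 17.1-fold higher and RTP4 4.32-fold lower. Mx1 in EMT6 did not reach 0.5 TPM in 3 libraries, and RTP4 in MDA-MB-231 stayed under 0.5 TPM in every library, so neither was fitted. The wild-type libraries of Ifi27l2a, Oas2, Ifit3 and Mx1 and the knockout libraries of MX1 were also all under 0.5 TPM, so the ratios of these genes rest on low values. Smaller human ratios belonged to Ifit1 (10.2-fold higher) with IFIT1 (1.27-fold lower), Ifit3 (12.7-fold higher) with IFIT3 (1.37-fold lower), and Oasl2 (7.39-fold higher) with its relative OASL (1.66-fold lower). Oasl1, another mouse relative of OASL and not a member, was 5.25-fold higher, at 7.14 and 37.5 TPM. Of IFIT1, IFIT3 and OASL, IFIT1 and OASL did not pass the test.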

How the results depend on the processing

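The number of EMT6 effectors higher with no overlap was 9 or 10 under median-ratio scaling and with each library left out, and none of the 9 EMT6 members that passed the minimum changed sign in any fit (Mx1 did not pass it). The MDA-MB-231 effectors called lower numbered 3 to 6 with a library left out, 4 with the replicate block and 5 under the other fits except the 2-fold minimum (4). ISG15 in MDA-MB-231 had log2 fold changes of -0.24 to 0.055 with a library left out, and turned positive only without wild-type replicate 3 (the cause was not tested). Of the other EMT6 interferon genes, the 2-fold minimum left 21 higher and 2 lower, and 5 were lower both under median-ratio scaling and with the exon length trend removed. Over all EMT6 genes, 1954 higher and 5705 lower became 202 and 621 with the 2-fold minimum, 3584 and 3426 under median-ratio scaling and 3441 and 3053 with the length trend removed. Over all MDA-MB-231 genes, 1220 higher and 1845 lower became 116 and 427 with the 2-fold minimum, and 543 to 1107 and 975 to 1597 with a library left out. With the replicate block they became 534 and 1030, and IFIT3 lost its call (adjusted p = 0.102). Same-numbered libraries did not deviate together (correlations 0.0647, -0.0175 and 0.0728 in EMT6, and 0.00168, 0.114 and -0.127 in MDA-MB-231). Differently numbered libraries ranged from -0.122 to 0.0623 in EMT6 and from -0.182 to 0.191 in MDA-MB-231. With 3 libraries per group, these values cannot show whether same-numbered libraries were prepared together. Depth is unknown, which limits what can be said of values under 1 TPM.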
